A study of Mus musculus with 20 samples.

Results

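Accessible chromatin, histone marks and Tcf4 occupancy were examined at 10 genes of the Notch pathway: the receptor genes Notch1, Notch2 and Notch3, the ligand genes Dll1, Dll3 and Jag1, Rbpj, and the target genes Hes1, Hes5 and Hey1. These genes were chosen by name, and the regions were those that the authors' annotation of accessible chromatin assigned to them, 30 of 32120 consensus regions. Every peak within the gene body and 20 kb on each side was read as well. The assayed cells had a history of Nkx2.1 expression, carried GFP and were sorted from the neocortex of pups at postnatal day 7 or 8. WT cells carried Nkx2.1-Cre and the Ai3 reporter with intact Tcf4, and Tcf4 cKO cells carried Tcf4 f/f with Nkx2.1-Cre, so Cre was present in both groups and the deletion was limited to cells with a history of Nkx2.1. Each genotype had 2 libraries of 50000 cells for ATAC-seq and for the marks H3K4me1, H3K27ac and H3K27me3. Tcf4 was mapped with an anti-Flag antibody in nuclei of sorted Nkx2.1-lineage cells of the Tcf4-tag line, 2 libraries of 200000 each. In this line the tag depends on Cre, so with Nkx2.1-Cre the endogenous protein carries 3xHA and 3xFlag only in that lineage. The labels do not say that libraries came from separate animals, so the spread between libraries may be technical.

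Notch receptors are cleaved when a ligand on a neighbouring cell binds them, and the freed intracellular domain joins the DNA-binding protein Rbpj to switch on target genes. Hes1, Hes5 and Hey1 encode basic helix-loop-helix repressors among these targets, and in the developing cortex the pathway is known for holding back neuronal differentiation and for its part in glial development. Dll1 and Jag1 encode activating ligands, whereas Dll3 encodes a divergent ligand that acts mainly within the cell. Tcf4 is itself a basic helix-loop-helix protein, which binds E-boxes, sequences of the form CANNTG.

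Sequences that bear on the regions below were read from the GRCm38.p6 reference and, for promoters, from RefSeq, whose table held 10 promoters for 8 of the 10 genes. Entries for Hes1 and Hey1 were missing. The Hes5 promoter, the 250 bases before the start at chr4:154960673-154960922 on the plus strand, is shown because it held the core TGGGAA of the Rbpj motif in both orientations, in capitals. This core, searched on both strands, was in 21.6% of 32851 promoters of this length, and in 3 of the 10 promoters of these genes, the other two being alternative Rbpj promoters that share a stretch.
Hes5 promoter: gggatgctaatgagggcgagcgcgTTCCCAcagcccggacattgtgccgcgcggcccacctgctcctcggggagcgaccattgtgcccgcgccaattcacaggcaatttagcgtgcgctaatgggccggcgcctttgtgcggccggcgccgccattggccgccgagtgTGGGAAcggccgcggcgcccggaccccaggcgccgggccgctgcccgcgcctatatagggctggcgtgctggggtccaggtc

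The next 4 sequences are 150-base windows on the plus strand around ATAC-seq summits, chosen after the values were seen. In these regions the genotypes did not overlap where a peak was present, and the second had no peak in Tcf4 cKO replicate 1. Many other member regions did not overlap either and are not shown, among them the Rbpj, Notch3 and Hes5 promoters and further Notch1 and Notch2 regions. Non-overlap was thus common in this set and does not set the 4 windows apart. The share of all consensus regions without overlap was not counted. Capitals mark CANNTG, or TGGGAA in the third window, where an E-box, CAGCTG, is left in lower case. An E-box was in 49.2% of the windows of all consensus regions and in 12 of 30 windows of these genes, and the Rbpj core in 12.7% and in 7 of 30. The first lies at chr5:53509604-53509753, the second at chr5:53605598-53605747, the third at chr2:26502324-26502473 and the last, which held neither motif, at chr2:26500857-26501006.
Rbpj upstream intron: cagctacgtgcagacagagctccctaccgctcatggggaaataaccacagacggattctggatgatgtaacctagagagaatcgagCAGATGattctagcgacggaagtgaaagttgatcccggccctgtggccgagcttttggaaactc
Rbpj intron: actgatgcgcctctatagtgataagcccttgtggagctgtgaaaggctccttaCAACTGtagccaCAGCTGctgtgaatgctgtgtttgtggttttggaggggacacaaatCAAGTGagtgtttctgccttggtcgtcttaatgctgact
Notch1 second exon: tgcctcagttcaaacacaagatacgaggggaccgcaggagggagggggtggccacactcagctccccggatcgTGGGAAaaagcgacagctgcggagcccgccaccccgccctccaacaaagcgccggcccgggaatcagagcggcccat
Notch1 second intron: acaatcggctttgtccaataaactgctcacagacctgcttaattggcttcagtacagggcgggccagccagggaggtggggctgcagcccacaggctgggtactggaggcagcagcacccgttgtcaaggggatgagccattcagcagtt

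The last pair are 150-base windows around Tcf4 summits that held the densest E-boxes of this set, in a Notch2 intron at chr3:98026022-98026171 and upstream of Jag1 at chr2:137117014-137117163, on the plus strand. At Tcf4 summits an E-box stood in 46.4% of 14083 windows and in 7 of the 12 windows of these genes. A match describes letters in a window and is not a site.
Notch2 Tcf4 summit: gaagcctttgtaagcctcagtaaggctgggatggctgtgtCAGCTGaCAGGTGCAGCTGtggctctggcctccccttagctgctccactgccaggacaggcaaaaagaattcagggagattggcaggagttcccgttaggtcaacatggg
Jag1 Tcf4 summit: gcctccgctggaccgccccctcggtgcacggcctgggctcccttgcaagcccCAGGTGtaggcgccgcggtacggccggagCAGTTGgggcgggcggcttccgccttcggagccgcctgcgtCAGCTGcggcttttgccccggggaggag

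The depth behind the values is known only as peak numbers, since no read counts per library were used. ATAC-seq libraries held 54162 to 72308 peaks, the mark libraries 15085 to 72790, and the anti-Flag libraries 28606 and 16834. H3K4me1 peaks covered 27.2 and 32.7 Mb in WT against 42.6 and 37.9 Mb in Tcf4 cKO. Cell type markers were read through their consensus regions. Of the fixed markers, 3 of 5 oligodendrocyte precursor, 3 of 5 interneuron and 4 of 5 astrocyte markers had an open promoter, as had 2 of 4 endothelial, 2 of 4 mural, 1 of 4 microglial and 1 of 4 projection neuron markers. The interneuron markers Gad2 and Lhx6, the precursor markers Cspg4 and Sox10, and the astrocyte marker Aqp4 had none. H3K27me3 was present in both WT libraries at all 3 open interneuron promoters. It was also at 2 of 2 endothelial, 2 of 2 mural, 1 of 1 projection neuron and 1 of 4 astrocyte open promoters, and at 0 precursor and microglial ones. H3K27ac was at 1 precursor, 1 astrocyte and 1 mural open promoter, and at 0 of the other cell types, interneurons among them.

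The regions of the Notch pathway genes were accessible in both genotypes about as often as other consensus regions. Of the 30 regions, 29 (96.7%) had an ATAC-seq peak in all 4 libraries, against 94.6% of all consensus regions, and 0 had a peak in both libraries of 1 genotype and neither of the other, against 1.02% of all consensus regions present in WT alone and 0.56% in Tcf4 cKO alone. In a limma fit across 30379 regions, on log2 of the highest fold enrichment over local background in each library, 1 member region fell and 1 rose at an adjusted p under 0.05. Over all regions tested, 3.19% passed, 1.64% lower and 1.56% higher in Tcf4 cKO, and at an unadjusted p under 0.05 the numbers were 5 of 29 member regions (17.2%) and 14.2% of all. The median log2 difference was 0.06 for the members and 0.01 for all regions. The authors' mean log2 normalized reads differed by over 0.5 at 5 of 30 member regions, 3 lower and 2 higher, against 21% of all regions, 12.6% lower and 8.38% higher. The share of members that differed was therefore near or below the background by this measure.

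Some cell type markers differed between the genotypes by the authors' means as well. This bears on all differences below because the cells were sorted in bulk. Fewer cells of a type cannot be told apart from less accessible chromatin per cell. By the authors' means, 11 of 25 astrocyte marker regions were over 0.5 higher in Tcf4 cKO and 3 were over 0.5 lower, while 4 of 12 precursor marker regions, 4 of 8 interneuron marker regions and 4 of 4 microglial marker regions were over 0.5 lower, with 1 interneuron region over 0.5 higher. Of the mural marker regions 2 of 5 were over 0.5 lower and 1 higher. Cspg4 was on both the precursor and the mural list, so those 2 sets are not separate. Of the projection neuron regions 1 of 6 was lower and 2 higher, and of the 7 endothelial regions 0 differed by that much. Over all consensus regions, 12.6% were over 0.5 lower and 8.38% over 0.5 higher. In the limma fit, 1 astrocyte marker region was called higher, and 1 interneuron region lower and 1 higher. For the other cell types 0 regions were called. Summed fold enrichment over the astrocyte regions was 131 and 144 in WT and 137 and 139 in Tcf4 cKO. For precursors it was 66.1 and 67.3 against 64.1 and 62.4, and for interneurons 47.8 and 50.2 against 40.6 and 39.4. The part of these cell types in the results was not tested.

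**Figure D1:**
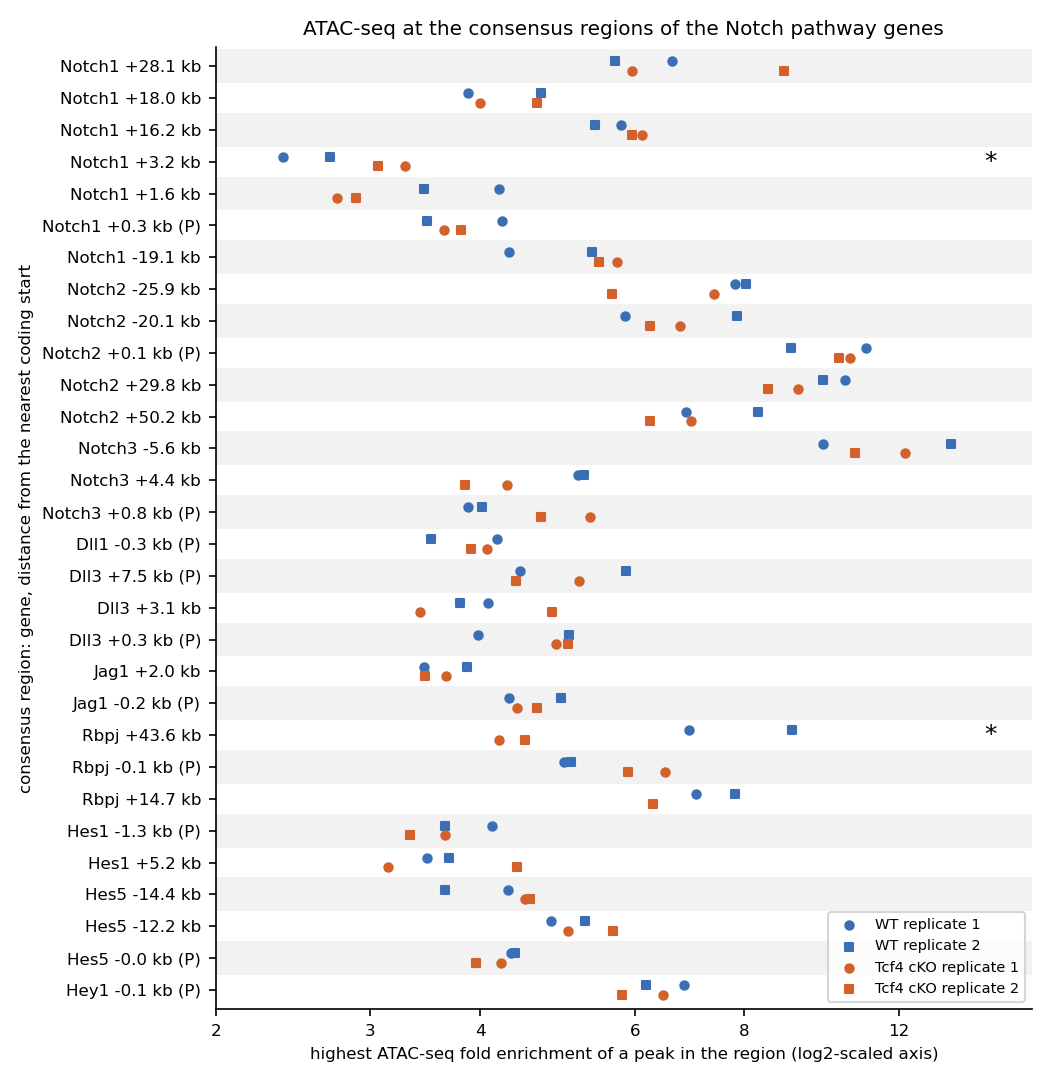
Highest ATAC-seq fold enrichment in each library (log2-scaled axis) at the 30 consensus regions, named by gene and by distance from the nearest coding start, with P for promoter regions. Blue is WT and orange Tcf4 cKO, circles and squares are replicates 1 and 2, and the asterisks mark the 2 regions with a limma adjusted p under 0.05.

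Among the receptors, Notch1 had the region that rose. In its second intron, where the annotation also has a noncoding exon of a short transcript, chr2:26500070-26501088 had fold enrichments of 2.38 and 2.70 in WT and 3.29 and 3.06 in Tcf4 cKO. Both Tcf4 cKO libraries were above both WT libraries, with a log2 difference of 0.41 (SE 0.10, limma adjusted p = 0.0127). The authors' mean log2 normalized reads were 7.74 in WT and 8.40 in Tcf4 cKO. The call was lost whichever library was left out, and without median centring (limma adjusted p = 0.164). Without centring, or with a WT library left out, nearly all calls over all regions were lost too. Those losses are therefore not particular to this region.

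A neighbouring region over the second exon of Notch1, chr2:26501709-26502783, lay in the other direction, with 4.21 and 3.45 in WT and 2.75 and 2.89 in Tcf4 cKO, a log2 difference of -0.34 (SE 0.13) that did not pass the test (limma adjusted p = 0.137). H3K27ac had peaks of 2.44 and 2.41 at this exon in WT replicates 1 and 2 and no peak in Tcf4 cKO. At the Notch1 promoter, chr2:26502937-26504142, the values were 4.24 and 3.48 in WT and 3.64 and 3.81 in Tcf4 cKO, and the groups overlapped.

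Notch2 had the highest fold enrichment of the 11 promoter regions, 11.0 and 9.04 at chr3:98013044-98014304 in WT and 10.6 and 10.3 in Tcf4 cKO. The authors' means were 8.45 and 8.64. A Notch2 intron region with Tcf4, chr3:98042722-98043970, had 10.4 and 9.83 in WT and 9.22 and 8.51 in Tcf4 cKO. The groups did not overlap there, but the centred log2 difference was -0.10 (limma adjusted p = 0.878), and the authors' mean differed by -0.45.

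The Notch3 promoter region, chr17:32165539-32166471, had 3.87 and 4.02 in WT and 5.33 and 4.69 in Tcf4 cKO. Both Tcf4 cKO values were higher, by 0.43 on the log2 scale (SE 0.16), and the difference did not pass (limma adjusted p = 0.149). The authors' mean was 6.40 in WT and 7.27 in Tcf4 cKO, the largest positive difference among the member regions. Notch3 encodes a receptor known from mural cells, and the mural marker regions had summed fold enrichments of 28.0 and 30.3 in WT and 27.3 and 27.6 in Tcf4 cKO. By the authors' means, the 2 open mural marker promoters were higher in Tcf4 cKO by a median of 0.60, 1 of them by over 0.5, while the median over all 5 mural marker regions was -0.28. The mural list shares Cspg4 with the precursor list, and the part of mural cells in the Notch3 value was not tested.

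The ligand genes showed no region that passed the test. The Dll1 promoter, chr17:15375483-15377126, had 4.18 and 3.52 in WT and 4.08 and 3.91 in Tcf4 cKO. The Dll3 promoter, chr7:28301334-28302632, had 3.98 and 5.06 against 4.87 and 5.03, and an internal Dll3 start, chr7:28294450-28295073, 4.44 and 5.86 against 5.19 and 4.40. The Jag1 promoter, chr2:137116070-137117654, had 4.31 and 4.94 against 4.40 and 4.65. At all 4 of these regions the genotypes overlapped, and the authors' means differed by -0.18 to -0.02.

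Rbpj, the DNA-binding partner of the cleaved receptors, had the region that fell. It lies at chr5:53509293-53510119, in an intron of the longest Rbpj transcript, 43554 bp from its start, and the deposited annotation calls it distal intergenic. Fold enrichment was 6.91 and 9.06 in WT and 4.20 and 4.50 in Tcf4 cKO. Both Tcf4 cKO libraries were below both WT libraries, with a log2 difference of -0.77 (SE 0.19, limma adjusted p = 0.0110). The authors' means were 5.95 in WT and 4.63 in Tcf4 cKO, the largest difference of the 30 regions (-1.33). When weaker peaks, with a -log10 q under 5, were set aside, both WT libraries kept a peak and neither Tcf4 cKO library did. The call was lost with either WT library or Tcf4 cKO replicate 1 left out, and without centring (limma adjusted p = 0.143). The direction was kept in each. Nearly all calls over all regions were lost as well without centring or with a WT library left out.

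A second Rbpj intron region, chr5:53605271-53606026, was the only member region without a peak in every library, and could not be fitted for that reason. It had 7.04 and 7.80 in WT, no peak in Tcf4 cKO replicate 1 and 6.30 in replicate 2, and the authors' means were 5.83 and 4.78. The Rbpj promoter, chr5:53588662-53591496, had the highest authors' mean of the 30 regions, 10.5 in WT and 10.3 in Tcf4 cKO. Its fold enrichment went the other way, 4.98 and 5.08 in WT against 6.50 and 5.89 in Tcf4 cKO, a log2 difference of 0.39 that did not pass (SE 0.18, limma adjusted p = 0.311).

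Of the target genes, Hes1 had an authors' mean at its promoter, chr16:30063201-30064889, of 9.57 in WT and 8.95 in Tcf4 cKO. Fold enrichment there was 4.12 and 3.65 in WT and 3.65 and 3.32 in Tcf4 cKO, with no detectable difference after centring (log2 difference -0.06, SE 0.14, limma adjusted p = 0.928). The Hes5 promoter, chr4:154960377-154961421, had 4.33 and 4.38 against 4.22 and 3.95, and the Hey1 promoter, chr3:8666570-8668138, 6.82 and 6.18 against 6.47 and 5.80. For these promoters the log2 differences were -0.00 and 0.01, and the authors' means were 9.24 and 8.98 for Hes5 and 10.1 and 9.91 for Hey1.

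**Figure D2:**
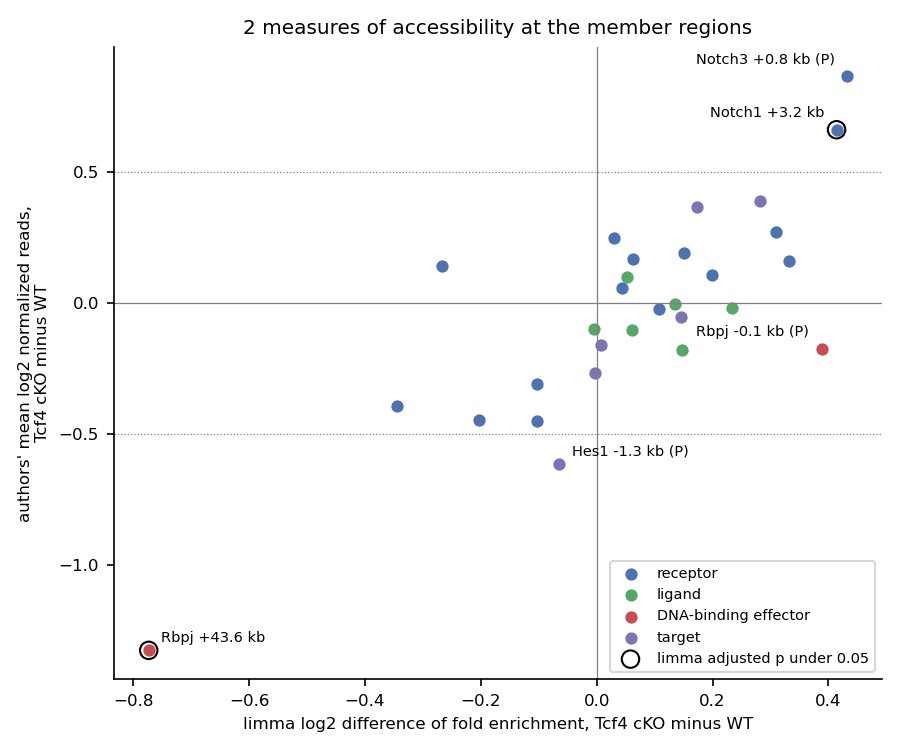
Difference of the authors' mean log2 normalized reads against the limma log2 difference of fold enrichment, both Tcf4 cKO minus WT, for the 29 fitted regions, coloured by role. The circled Rbpj region at -0.77 and the circled Notch1 region at 0.41 passed the test, and dotted lines mark a difference of 0.5 in the authors' means.

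The footprint of the Rbpj motif, scored by the authors on 1 merged alignment per genotype, was slightly higher in Tcf4 cKO. Over 35583 motif sites the mean footprint score was 0.290 in WT and 0.298 in Tcf4 cKO, and the sites called bound were 4425 (12.4%, Wilson 95% interval 12.1 to 12.8%) and 4629 (13.0%, 12.7 to 13.4%). These intervals cover counting error only, and with 1 value per genotype there was no test. The difference of 0.00833 lay above that of 96.6% of the 1205 motifs. For all motifs it ranged from -0.0452 to 0.0263 with a median of -0.0005, and 46.6% of motifs were higher in Tcf4 cKO.

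Tcf4 occupied 7 of the 10 loci in both anti-Flag libraries, with 12 reproducible regions of 14087 in all. Over all protein-coding genes, 59.5% of loci held such a region. It covered at least 30% of 8 of the 30 consensus regions, against 36.3% of all consensus regions. Of the 11 promoter regions 5 were covered, those of Dll1, Dll3, Jag1, Rbpj and Hey1, against 53.4% of all promoter regions. The Rbpj promoter had the highest Tcf4 enrichment of these, 5.49 and 5.73 in the tagged libraries. Hey1 had 4.34 and 4.50, Dll1 4.03 in both, Dll3 4.74 and 4.60, and Jag1 3.57 and 3.28.

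In introns, Tcf4 lay at Notch1 (chr2:26487435-26488201, fold enrichment 3.46 and 4.79) and at 3 places in Notch2. Of these, chr3:98042973-98043792 had 5.25 and 4.51, and chr3:98063266-98064243 had 4.04 and 5.002. Outside the genes, a region beyond Notch1 and one upstream each of Dll1 and Dll3 also held Tcf4. Notch3 and Hes5 had peaks in anti-Flag replicate 1 alone, 4 and 2 of them, and Hes1 had 1 peak in each library at different places. Neither region that passed the accessibility test, in Rbpj or in Notch1, had a Tcf4 peak in either library. With replicate 1 alone, 16 of 30 consensus regions held Tcf4, and with replicate 2 alone 7.

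**Figure D3:**
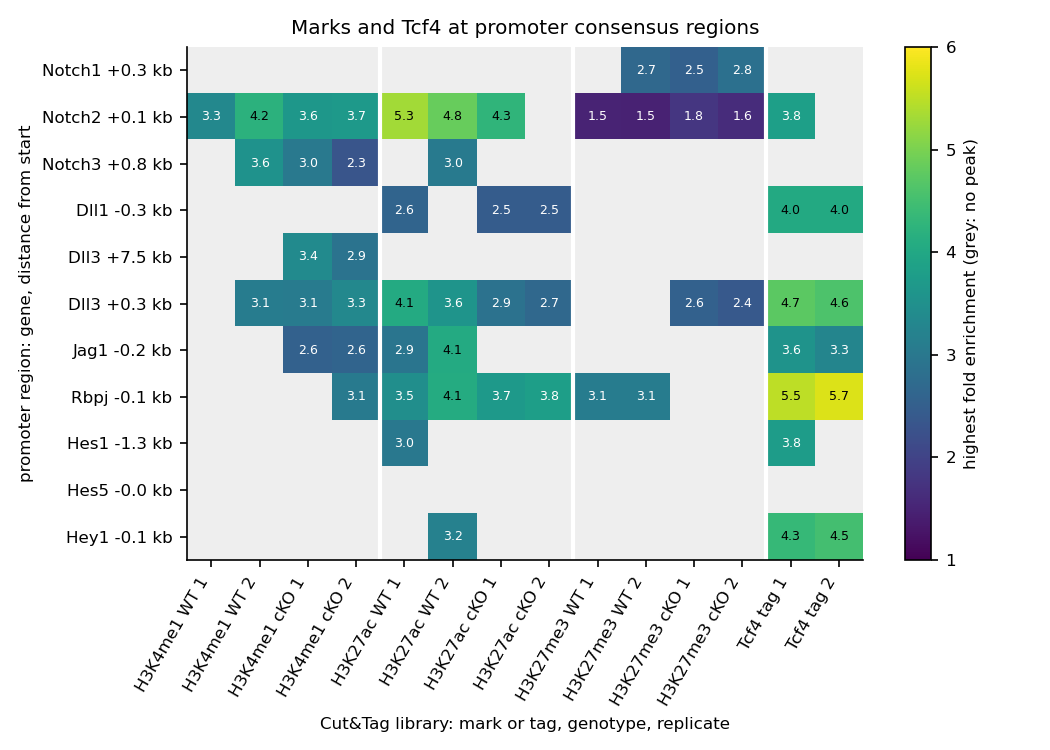
Highest Cut&Tag fold enrichment at the 11 promoter consensus regions (rows, with distance from the nearest coding start) in each mark or tag library (columns); grey cells had no peak. Rbpj and the Dll3 start had H3K27ac in all 4 libraries, and Hes5 had no peak in any library.

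The promoters of the Notch pathway genes carried few H3K27ac peaks, a mark of active promoters and enhancers. In both WT libraries, 4 of 11 promoter regions had one, against 77.1% of all promoter regions, and in both Tcf4 cKO libraries 3 of 11, against 72.1%. The Rbpj promoter had H3K27ac of 3.48 and 4.07 in WT and 3.68 and 3.80 in Tcf4 cKO. At the Dll3 promoter the values were 4.05 and 3.59 in WT and 2.89 and 2.69 in Tcf4 cKO. Both Tcf4 cKO values were lower at Dll3, by 0.43 on the log2 scale (SE 0.15), and the difference did not pass (limma adjusted p = 0.623). The Notch2 promoter had 5.31 and 4.83 in WT and 4.27 in Tcf4 cKO replicate 1, with no peak in replicate 2. At Hes5 no H3K27ac peak lay on the promoter region in any library, and at Hes1 and Hey1 there was 1, in a WT library.

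No H3K27ac region in the 10 loci passed the limma test, and no H3K27ac region did over all 13799 tested (0%), where 912 had an unadjusted p under 0.05. In the loci, 8 of 38 merged H3K27ac regions could be tested, 1 of them with an unadjusted p under 0.05. Peaks in both libraries of 1 genotype alone were found at 3 regions. The Jag1 promoter had 2.95 and 4.06 in WT alone, the second exon of Notch1 had the WT peaks given above, and a region downstream of the Hes1 start, chr16:30066251-30066937, had 3.39 and 4.39 in Tcf4 cKO alone. Over all merged regions, 4.23% were in WT alone and 2.53% in Tcf4 cKO alone. None of the 3 was kept when peaks with a -log10 q under 5 were set aside, a filter that cut the testable H3K27ac regions from 13799 to 7031. How many of all 1-genotype regions it kept was not counted.

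H3K4me1, a mark of enhancers and of the flanks of promoters, was found in Tcf4 cKO alone at 11 of the 73 merged regions of the loci and in WT alone at 2, against 7.51% and 2.64% of all merged regions. The 11 lay at Notch1, Notch2, Dll3, Jag1, Rbpj, Hes5 and Hey1, and the Hey1 region, chr3:8668205-8668584, had 2.91 and 2.89. At Jag1 the mark was present at the promoter with 2.56 and 2.60 and in an intron with 2.35 and 2.56, and at Dll3 at both starts, with 3.40 and 2.90 at the internal one, while WT replicate 2 had a peak elsewhere in the Dll3 promoter region. In WT alone, a Notch3 intron region had 2.94 and 2.85 and a region beyond Hes5 3.49 and 3.49. H3K4me1 lists were longer in Tcf4 cKO over the whole genome, as given above. None of the 13 regions was kept when peaks with a -log10 q under 5 were set aside. Over the whole genome this filter cut the regions with a peak in all 4 libraries from 26101 to 3523. The share of all 1-genotype regions that it kept was not counted. In the limma fit 0 of 16 tested regions passed, with 0 at an unadjusted p under 0.05, and over all 26101 regions 1 passed (0.00383%).

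H3K27me3, the mark of Polycomb repression, lay in broad, weak peaks along the whole Notch2 gene. In WT, 21 and 20 peaks covered 38258 and 42579 bp of the Notch2 locus, and in Tcf4 cKO 19 and 21 peaks covered 22867 and 38629 bp. The other loci had at most 9 peaks in a library, and none lay at Hey1. At Notch2, 3 regions had higher enrichment in Tcf4 cKO by limma, where 4.15% of 7802 regions passed and 3.17% passed upward. Most of the 22 regions tested in the loci lay along Notch2, so these 3 are stretches of 1 gene and not independent loci. The first, chr3:98013493-98020860 over the first exon, had 1.51 and 1.47 in WT and 1.79 and 1.63 in Tcf4 cKO, 0.20 higher on the log2 scale (SE 0.05, limma adjusted p = 0.0345). An intron region, chr3:98037585-98040243, had 1.58 and 1.50 against 1.83 and 1.80 (log2 difference 0.23, limma adjusted p = 0.0163), and a second, chr3:98092784-98095403, 1.59 and 1.55 against 1.84 and 1.81 (0.21, 0.0210).

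The peaks at these Notch2 regions were shorter in Tcf4 cKO at the same time. At the intron region they covered 2545 and 2659 bp in WT and 463 and 969 bp in Tcf4 cKO, so enrichment and covered length went in opposite directions. The calls therefore do not show a gain of the mark at Notch2. Whether the shorter peaks gave the higher values was not tested. All 3 calls were lost with either WT library left out, where many H3K27me3 calls over all regions were lost too. The one over the first exon was also lost without Tcf4 cKO replicate 1. H3K27me3 in both libraries of 1 genotype alone was found at 4 of 53 regions. The Rbpj promoter had 3.10 and 3.11 in WT alone, the Dll3 promoter 2.56 and 2.39 in Tcf4 cKO alone, and upstream of Notch2 there was 1 region of each kind. Over all merged regions, 4.05% were in WT alone and 5.36% in Tcf4 cKO alone, and none of these 4 was kept when peaks with a -log10 q under 5 were set aside, which left 2 others.

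**Figure D4:**
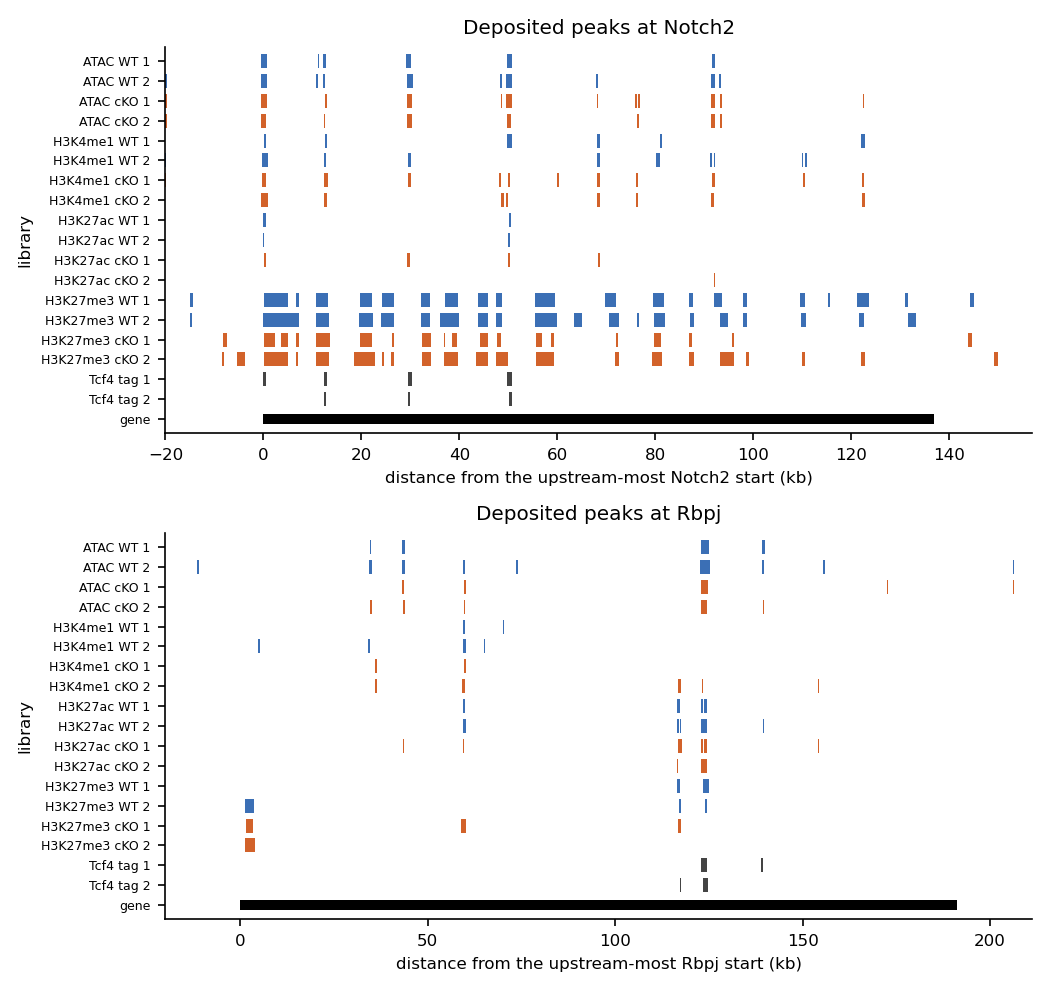
Deposited peaks of every library at Notch2 and Rbpj, drawn as bars against the distance from the upstream-most start in kb, with the gene in black. Blue is WT, orange Tcf4 cKO and grey the Tcf4-tag line; H3K27me3 covers Notch2 in 19 to 21 peaks per library, and Tcf4 at Rbpj lies mainly at the promoter.

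The length covered by peaks was compared locus by locus, calling groups apart where both libraries of a genotype exceeded both of the other. For ATAC-seq, Notch1, Rbpj and Hes1 were lower in Tcf4 cKO and Jag1 was higher, against 25.7% of all loci lower and 7.38% higher, so the numbers were near the background. The Notch1 difference was lost as a share of the covered length of the library, with 10 kb or 50 kb on each side and with a -log10 q of at least 5, and those of Hes1 and Jag1 with the last alone. Notch3 was higher in Tcf4 cKO as a share and with 10 kb or 50 kb. At Hes1, 3250 and 4082 bp were covered in WT and 2934 and 2100 bp in Tcf4 cKO. At Rbpj the lengths were 4077 and 7665 bp against 3458 and 3644 bp, with WT replicate 2 far above the other WT library, and at Jag1 3178 and 3181 bp against 3911 and 3733 bp.

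For the marks, H3K4me1 was higher in Tcf4 cKO at 4 loci (Notch1, Dll3, Jag1 and Hey1), where 44.6% of all loci were. H3K27ac was lower at Dll3 and Hes5 and higher at 0, against 21.9% and 9.47%, and H3K27me3 was higher at Dll3 and lower at 0, against 20.9% and 14.9%. The Hes5 difference rested on 111 and 106 bp of a WT peak at the edge of the locus, chr4:154940368-154941033, where Tcf4 cKO replicate 2 had a peak of 292 bp just outside the 20 kb, and it was lost with 10 kb, with 50 kb and with a -log10 q of at least 5. The H3K4me1 differences at Notch1 and Hey1 were lost as a share, and H3K27me3 at Notch2 was lower in Tcf4 cKO as a share, with 50 kb and with a -log10 q of at least 5. Dll3 had 2362 and 2066 bp of H3K27ac in WT and 1623 and 1433 bp in Tcf4 cKO, and 1512 and 1599 bp of H3K27me3 against 2338 and 2607 bp. Over the 10 loci together, H3K27ac covered 15.2 and 11.6 kb in WT and 13.1 and 7.88 kb in Tcf4 cKO, and the groups overlapped. H3K4me1 covered 17.9 and 20.7 kb against 27.5 and 26.2 kb, higher in both Tcf4 cKO libraries, but as a share of each library's covered length the groups overlapped. H3K27me3 covered 57.3 and 59.9 kb against 47.5 and 54.6 kb, lower in both Tcf4 cKO libraries and lower as a share, and without Notch2 it covered 19.0 and 17.3 kb against 24.6 and 15.97 kb, where the groups overlapped.

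**Figure D5:**
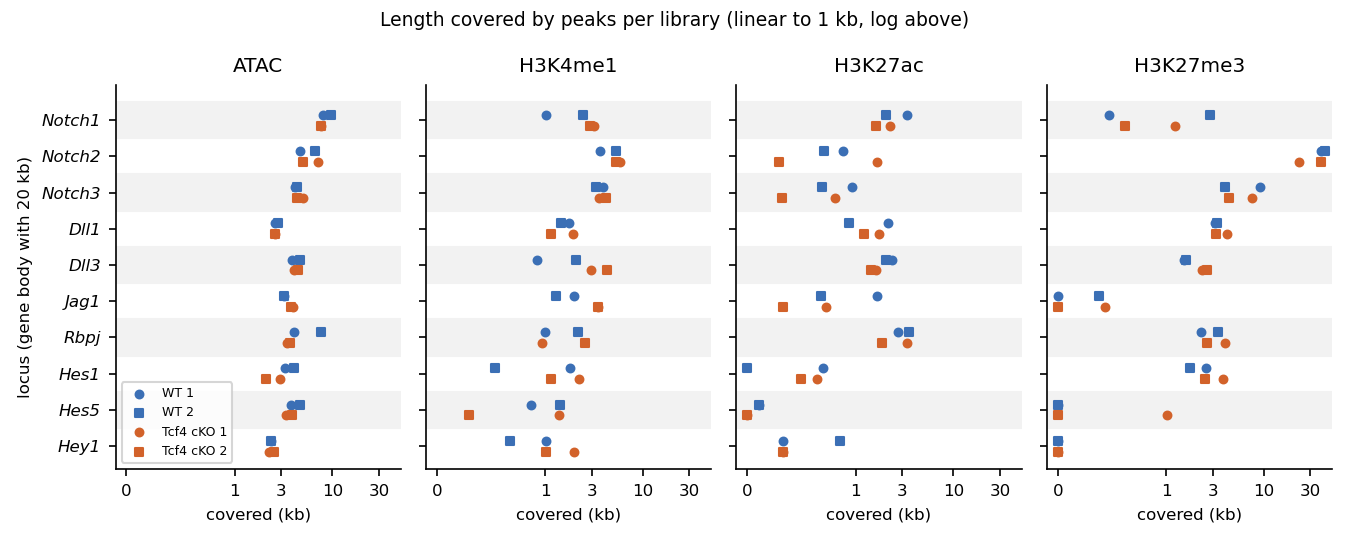
Length covered by peaks in each locus and library, in kb, on an axis that is linear to 1 kb and logarithmic above, with blue for WT and orange for Tcf4 cKO. H3K27me3 covers 22867 to 42579 bp at Notch2, and at Hes5 and Hey1 it covers nothing in at least 3 of the libraries.

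A list of 50 further pathway genes was read in the same way, and 48 had 112 consensus regions. Of the 104 regions tested, 2 were higher and 2 lower in Tcf4 cKO, against 3.19% of all regions. Of the 112 regions, 3 had peaks in 1 genotype alone. These were 2 in WT and 1 in Tcf4 cKO, against 1.02% and 0.56% of all consensus regions. Tcf4 covered at least 30% of 49 of the 112 regions (43.75%), against 36.3% of all consensus regions. A region near Hes2, which encodes a repressor of the same family as Hes1, had 7.74 and 7.39 in WT and 3.76 and 3.42 in Tcf4 cKO (log2 difference -0.99, limma adjusted p = 0.000718) and held Tcf4 over 99.6% of its length. The promoter of Maml3, a coactivator of the Notch complex, had 2.45 and 3.21 against 4.05 and 3.84 (0.58, limma adjusted p = 0.00382). The promoter of Poglut1, an O-glucosyltransferase of receptors, had 3.73 and 5.18 against 6.05 and 7.62 (0.72, limma adjusted p = 0.0200). At the promoter of Lfng, a receptor-modifying glycosyltransferase, the values were 4.99 and 5.54 against 2.93 and 3.84 (-0.56, limma adjusted p = 0.0375). The authors' means at Lfng went the other way, 8.10 in WT and 8.26 in Tcf4 cKO, and at Maml3 they hardly differed, 7.01 and 7.07. At Hes2 (6.74 and 5.56) and Poglut1 (5.30 and 5.87) they went in the direction of the limma difference.

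Upstream of Nrarp, a feedback inhibitor of Notch signalling, a region at -8571 bp from the start had 5.68 and 5.32 in WT and no peak in Tcf4 cKO, with Tcf4 over all of its length. A Snw1 intron region had 6.94 and 9.39 in WT alone, and a region near Dlk1 5.10 and 5.38 in Tcf4 cKO alone, both without Tcf4. The Hes2, Maml3, Poglut1 and Lfng calls were each lost with either WT library left out, and without centring (limma adjusted p from 0.129 to 0.245). Nearly all calls over all regions were lost in these settings too. The Poglut1 call was also lost without Tcf4 cKO replicate 2 (limma adjusted p = 0.200), and that of Lfng without Tcf4 cKO replicate 1 (0.602, with the log2 difference moved to -0.35) and with quantile normalization (0.0504).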

How the data were processed

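Deposited peak lists of ATAC-seq and Cut&Tag libraries were used. The authors trimmed reads with Trim Galore, aligned them to mm10 with Bowtie 2, removed duplicates with SAMtools and ran MACS2 library by library, with broad peaks for H3K27me3. Each deposited peak has a fold enrichment ratio over local background and a -log10 q-value. The authors' deposited consensus table holds, for WT and Tcf4 cKO, mean log2 normalized reads from DiffBind, with an annotation by ChIPseeker. Its fold changes, p-values and FDR compare the genotypes and were not used. The deposited TOBIAS table gives, from 1 merged alignment per genotype, a mean footprint score and the number of sites called bound; its change and p-value columns were not used. Read depth per library is not given in the sources used here.

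For each region the highest fold enrichment of an overlapping peak was taken per library. Regions with a peak in all 4 libraries were tested on the log2 scale, centred on the library median, with limma 3.58.1 (trend, Benjamini-Hochberg adjustment over all regions, R 4.3.3). Exact permutation of 2 against 2 libraries cannot go below p = 0.33. Mark regions were peaks merged over the 4 libraries. Loci were GENCODE M21 gene bodies with 20 kb on each side. A region held Tcf4 where regions found in both anti-Flag libraries covered at least 30% of it. Motifs were searched on both strands with pysam 0.24.0. The limma code was tested on simulated data. Alternatives were other normalizations, a -log10 q of at least 5, other overlaps and locus widths, a replicate block and leaving out each library.

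The genes, their regions and the lists were chosen with earlier results of these data known. Named were all 10 genes with their promoters, other regions that passed limma, were present in 1 genotype alone or differed by over 0.5 in the authors' means, and such mark regions; other receptor regions are named for their Tcf4 or their neighbour and were chosen after their values were seen. Single-cell RNA sequencing was not analysed here.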

Additional observations from a re-analysis of the deposited data

How the results depend on the processing

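Of the 30 regions, the number that passed the ATAC-seq test fell from 2 to 0 without centring. It was also 0 with a -log10 q of at least 5, but there neither of the 2 regions kept a peak in all 4 libraries, so neither was tested. With a library left out, the log2 difference ran from -0.91 to -0.65 at the Rbpj region and from 0.37 to 0.46 at the Notch1 region. Centring moved the median difference of all regions, which was -0.08 without it. The log2 difference at the Hes1 promoter ran from -0.22 without WT replicate 2 to 0.087 without WT replicate 1. The number of H3K27me3 regions that passed fell from 3 to 1 without centring and with quantile normalization. It was 0 with a -log10 q of at least 5, where none of the 3 kept a peak in all 4 libraries to be tested. With a library left out, their log2 differences ran from 0.131 to 0.242, from 0.219 to 0.256 and from 0.200 to 0.221. Regions found in 1 genotype alone fell from 13 to 0 for H3K4me1, from 3 to 0 for H3K27ac and from 4 to 2 for H3K27me3 with a -log10 q of at least 5, an alternative chosen after seeing the data. With a library left out they numbered 21 to 24, 7 to 12 and 8 to 11, since fewer libraries had to lack a peak. ATAC-seq regions found in 1 genotype alone rose from 0 to 1 with a -log10 q of at least 5 and to 2 with an overlap of at least 50%, and were 0 to 1 with a library left out. Loci whose covered lengths did not overlap were, for ATAC-seq, 4, and 2 with a -log10 q of at least 5; for H3K4me1, 4, and 2 as a share of the library; for H3K27ac, 2, then 4 with a -log10 q of at least 5, 4 as a share and 1 with 50 kb; for H3K27me3, 1, and 3 with a -log10 q of at least 5, as a share, with 10 kb and with 50 kb. With a library left out they were 5 to 8, 5 to 8, 3 to 8 and 1 to 7. Consensus regions with Tcf4 were 7 to 16 with an anti-Flag library left out, and loci with Tcf4 8 to 10. The causes of these changes were not tested.

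The labels do not say whether the replicate numbers pair the libraries, and the values showed little sign of it. Deviations of same-numbered libraries correlated at -0.007 for ATAC-seq, 0.003 for H3K4me1, 0.027 for H3K27ac and 0.015 for H3K27me3, across regions. With the replicate number as a block, 2 member regions passed for ATAC-seq and 3 for H3K27me3, as without it, and 0 for H3K4me1 and H3K27ac. Over all regions the block moved the calls from 970 to 1093 for ATAC-seq, from 324 to 689 for H3K27me3 and from 0 to 9 for H3K27ac. Over all regions ATAC-seq calls were 0 without centring, 636 with quantile normalization and 236 with a -log10 q of at least 5, and 3, 0, 621 and 779 without WT replicate 1, WT replicate 2, Tcf4 cKO replicate 1 and Tcf4 cKO replicate 2.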
